A study of Homo sapiens with 8 samples.

Results

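Gene expression in BEAS-2B cells exposed to αC was compared with that in BEAS-2B cells exposed to M1-FCP. The comparison takes its members from the treatment labels: 2 αC libraries and 2 M1-FCP libraries, 4 of the 8 libraries of the series, set against each other across all genes. The count files list 50006 gene entries. Of these, 9382 were set aside because the gene is also listed as a numbered copy on an alternate locus or because the entry is such a copy, which left 40624 entries. A filter on low counts then kept 15321 genes for the test.

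BEAS-2B is an immortalised line made from human bronchial epithelium. All 8 libraries came from wild-type BEAS-2B cells, by the genotype label, grown in serum-free LHC-9 medium and sampled after 4 h. The M1-FCP group received Der m 1-derived FCPs at 4 ng/µl and the αC group the αC domain of fibrinogen at 4 ng/µl. Der m 1 is the group 1 allergen, a cysteine protease, of the mite Dermatophagoides microceras. The labels do not expand FCP. By the sample labels αC is a domain of fibrinogen, whereas the wording of the title ties it to the allergen. How αC was prepared is not given here. The other 2 groups, Mock (PBS) and FBG (fibrinogen at 4 ng/µl), enter the fit and serve as reference levels. The series design asks about adhesion-related expression. The comparison of αC with M1-FCP therefore sets the fibrinogen domain against the FCP preparation at the same mass concentration and time.

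Bronchial epithelial cells answer many inhaled proteases, microbial products and cytokines through NF-kB, a family of transcription factors held in the cytoplasm by IκB proteins. When receptors such as the Toll-like and interleukin-1 receptors signal, the IκB proteins are degraded, and NF-kB enters the nucleus and switches on chemokines, cytokines, adhesion molecules and its own inhibitors. The inhibitors include NFKBIA, TNFAIP3 and TNIP1, so their messenger RNA rises together with that of the targets. Fibrinogen is a large plasma glycoprotein. The αC region of its Aα chain is flexible, easily cut by proteases, and carries integrin-binding RGD sequence.

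Library totals were 21680688 and 21715092 counts in M1-FCP and 22248780 and 22258791 in αC, within a range of 15137196 to 22258791 over the series, and 3 counts corresponded to a level of 0.136 to 0.140 CPM, the count scaled to a fixed library total, in these 4 libraries. The labels number the libraries of a group as biological replicates without saying that they came from separate cultures, so the p-values reflect the spread within these pairs of libraries, and that spread may be technical alone. Within a pair, counts varied by 1.27 to 1.34 times what counting alone gives. The first principal component, 83.7% of the variance, placed M1-FCP at 70.4 and 70.5 and αC at 75.5 and 75.5, against values from -85.4 to -60.7 for Mock and FBG. The M1-FCP and αC libraries therefore stood apart from the other 4, also in cell-type markers. KRT5, a keratin of basal epithelial cells, lay at 1593 to 1656 CPM in them and at 1.81 to 7.68 in Mock and FBG. The summed level of 15 fibroblast markers was 252.6 to 263.3 CPM in them and 1258 to 2470 in Mock and FBG. Most of that sum was COL1A1, at 175.5 to 188.2 CPM in M1-FCP and αC and 1096 to 2183 in Mock and FBG. FAP and HOXA5, at low levels, went the other way. Median log2 differences by autosome ran from -0.29 to 0.48 between M1-FCP and Mock and from -0.018 to 0.034 between αC and M1-FCP. Whether all 8 libraries came from the same cell stock was not tested. M1-FCP and αC were close in the summed marker levels: the airway epithelial and keratin markers summed to 8067 to 8152 CPM in M1-FCP and 8054 to 8074 in αC. Single members of that list differed, with 8 of 23 tested called higher and 5 lower in αC. Leukocyte markers summed to 13.45 to 13.58 and 13.54 to 13.68 CPM, most of it CD68, with 9 of 18 markers at 0, and endothelial markers to 2.885 to 3.55 and 3.336 to 4.542 CPM. The secretory and ciliated markers SCGB3A1, SCGB1A1, MUC5B and FOXJ1 were at or near 0, so the epithelial label rests on keratins and junction genes. Levels below are CPM scaled by the trimmed mean of M-values (TMM). In bulk RNA, fewer cells of a type and less RNA per cell cannot be told apart.

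The αC libraries held more messenger RNA of inflammatory genes than the M1-FCP libraries. Among the genes with the smallest p were TNFAIP2, SOD2, TNIP1, ICAM1 and SDC4, all higher, and HSP90AB1, which was lower, and the genes with the widest differences at well-measured levels included SAA2, CCL20, KRT6B, CXCL5 and CXCL8. Heat shock chaperones, actin cytoskeleton genes and sterol synthesis genes were lower in αC by small amounts, and 3 short structural RNAs were lower by large ones. Over all 15321 genes, 2326 (15.2%) passed an adjusted p of 0.05 in edgeR's quasi-likelihood test with Benjamini-Hochberg adjustment, which is called a call here. Of these, 1112 (7.26%) were higher and 1214 (7.92%) were lower in αC. With library totals alone as the scaling, the split was 1312 higher and 912 lower.

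Most calls were small. The median absolute log2 fold change was 0.096 over all genes and 0.16 among the called ones. A difference of at least 1.5-fold was called for 196 genes (1.28%), 164 (1.07%) higher and 32 (0.209%) lower in αC, and a difference of at least 2-fold for 81 genes (0.529%), 61 (0.398%) higher and 20 (0.131%) lower. Of the 164 higher genes, 122 were protein coding and 32 belonged to 5 immune gene lists that together had 98 tested members. Among the 2269 genes with a mean level of at least 100 CPM, 11 were at least 1.5-fold higher and 0 were at least 1.5-fold lower, although 948 were called. Calls were more frequent at high levels, so lists of abundant genes can hold more calls than the 15.2% over all genes. Lists were not compared with genes of the same level. For 11114 genes (72.5%) the 95% interval of the fold change lay within 1.5-fold either way. The 2 groups did not overlap in 8250 genes (53.8%), so a lack of overlap alone says little with 2 libraries a group. The same fit called 78% of genes between M1-FCP and Mock and 79.3% between αC and Mock, which share their Mock libraries, with median absolute log2 fold changes of 0.64 and 0.65, and at least 2-fold calls of 29.3% and 30.6%. With DESeq2, 687 genes were called in αC against M1-FCP, 355 higher and 332 lower.

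**Figure D1:**
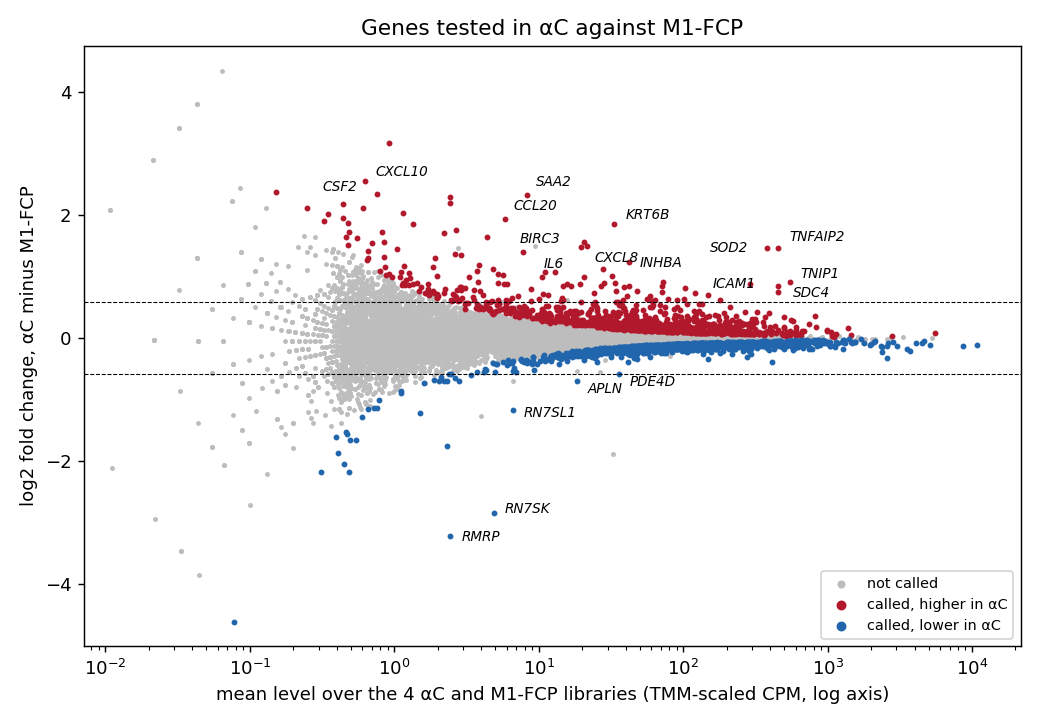
Log2 fold change of αC minus M1-FCP (vertical axis) against the mean level over the 4 libraries in TMM-scaled CPM (horizontal log axis) for the tested genes, except 4 with 0 counts in all 4 libraries. Red and blue points are genes called higher and lower in αC, grey points are not called, and dashed lines mark 1.5-fold; the labelled immune genes lie above the upper line and RN7SK, RMRP and RN7SL1 far below the lower one.

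The NF-kB list holds subunits of the factor, its feedback inhibitors and direct targets. Of 19 tested members, 16 were called higher and 0 lower, 10 of them at least 1.5-fold, and the median log2 fold change was 0.64 against -0.004 over all genes tested. With a stricter filter on low counts 15 of 18 tested were called higher, and with DESeq2 14 of 17. TNFAIP2 (chromosome 14, 103121469 to 103137439), a TNF-induced gene linked to membrane protrusions, had 241 and 245 CPM in M1-FCP and 672 and 670 in αC. Both αC libraries were far above both M1-FCP libraries, a 2.76-fold difference (log2 1.47 ± 0.015 SE, n = 2 per group, edgeR adjusted p = 1.2e-138). SOD2 (chromosome 6, 159669069 to 159762281), the mitochondrial superoxide dismutase, had 204 and 204 CPM in M1-FCP and 559 and 563 in αC. Its difference was also 2.76-fold (log2 1.46 ± 0.018, edgeR adjusted p = 8.99e-129), with no overlap. BIRC3, an inhibitor of apoptosis and ubiquitin ligase of the TNF receptor complex, had 10.2 and 10.3 CPM in M1-FCP and 28.2 and 29.2 in αC, 2.8-fold apart (edgeR adjusted p = 5.03e-34).

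The inhibitors of the pathway were higher as well. TNIP1, which binds the deubiquitinase TNFAIP3 and dampens signalling, had 386 and 377 CPM in M1-FCP and 720 and 715 in αC, without overlap (log2 0.91 ± 0.013, edgeR adjusted p = 6.7e-119). TNFAIP3 itself had 77.2 and 82.5 CPM in M1-FCP and 125 and 124 in αC (log2 0.64 ± 0.035). NFKBIA, which encodes IκBα, had 105 and 104 CPM in M1-FCP and 152 and 155 in αC (log2 0.55). The IκB family genes NFKBIE and NFKBIZ and the deubiquitinase gene CYLD were higher by less, with log2 fold changes of 0.35, 0.37 and 0.31. NFKBIB could not be judged, since its entry was set aside for its copies and held at most 1 count per library; the same holds for TNF and IER3.

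Among the subunits, the 2 members of the alternative branch had the largest fold changes. NFKB2, the precursor of p52, had 75.1 and 75.2 CPM in M1-FCP and 131 and 134 in αC (log2 0.82 ± 0.034, edgeR adjusted p = 2.2e-51). RELB, its partner, had 19.7 and 19.1 CPM in M1-FCP and 34.7 and 35 in αC (log2 0.84 ± 0.072). BCL3, a nuclear IκB protein that works with p50 and p52, had a log2 fold change of 0.83. NFKB1 was higher by log2 0.55 and REL by 0.25. RELA, the main activating subunit, was not called: it had 105 and 107 CPM in M1-FCP and 109 and 114 in αC, a log2 fold change of 0.07 with a 95% interval from 0.01 to 0.14 and an edgeR adjusted p of 0.104. Differences between subunits were not tested. The targets PTGS2 and TRAF1 were the other members without a call, and REL was not called with DESeq2 (adjusted p = 0.069). The colony-stimulating factors are secreted targets. CSF3, which drives neutrophil production, had 30.2 and 29.5 CPM in M1-FCP and 53.6 and 54.5 in αC (log2 0.85 ± 0.058), and CSF2 had 0.267 and 0.222 CPM in M1-FCP and 1.24 and 1.28 in αC (log2 2.34 ± 0.46), close to the level that 3 counts give. CSF2 passed the filter on low counts only through the αC libraries.

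Chemokines, the secreted attractants of leukocytes, had the highest list median. Of 13 tested chemokine genes and receptors, 10 were called higher and 0 lower, 9 at least 1.5-fold, with a median log2 fold change of 1.02. Of these, CXCL10 passed the filter on low counts only through the αC libraries. With a stricter filter on low counts 8 of 9 tested were called higher, and with DESeq2 6 of 8. CXCL8, the neutrophil chemokine interleukin-8, had 11.5 and 11.2 CPM in M1-FCP and 31.8 and 32.2 in αC. The 2.83-fold difference (log2 1.5 ± 0.082, edgeR adjusted p = 2.01e-38) had no overlap. CCL20, which attracts CCR6-bearing dendritic cells and lymphocytes, had 2.49 and 2.31 CPM in M1-FCP and 8.88 and 9.59 in αC, 3.84-fold apart (edgeR adjusted p = 1.41e-20). CCL2, a monocyte attractant, had 3.78 and 4.84 CPM in M1-FCP and 12 and 10.7 in αC (log2 1.4 ± 0.13). Both groups of CCL2 values lay below the Mock libraries, which had 15.5 and 14.4 CPM.

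The neutrophil-attracting CXC genes next to CXCL8 on chromosome 4 were higher too. CXCL1 had 20.4 and 22.2 CPM in M1-FCP and 44.2 and 42.0 in αC (log2 1.02 ± 0.061). CXCL2 had 6.8 and 6.17 CPM in M1-FCP and 12.2 and 10.4 in αC, and CXCL3 had 3.55 and 3.77 and then 7.25 and 6.38. Reads of these 3 close relatives may be shared between them, so the split among them is uncertain. CXCL5 had 1.96 and 2.31 CPM in M1-FCP and 6.48 and 6.93 in αC (log2 1.65 ± 0.17). CXCL6 and CXCL10, the latter an interferon-induced attractant of T cells, stayed near the detection floor, at 0.0888 and 0.355 against 0.729 and 1.24 CPM and at 0.267 and 0.0888 against 0.686 and 1.46 CPM. Without the second αC library neither was called (log2 1.91, edgeR adjusted p = 0.0837 for CXCL10, and log2 1.69, 0.0636 for CXCL6), nor was CXCL6 without the first M1-FCP library (log2 1.46, 0.0765). CCL20 was not called with genes with copies kept in the fit (adjusted p = 0.166). The members without a call were CX3CL1, CCL28 and the scavenging receptor ACKR3.

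**Figure D2:**
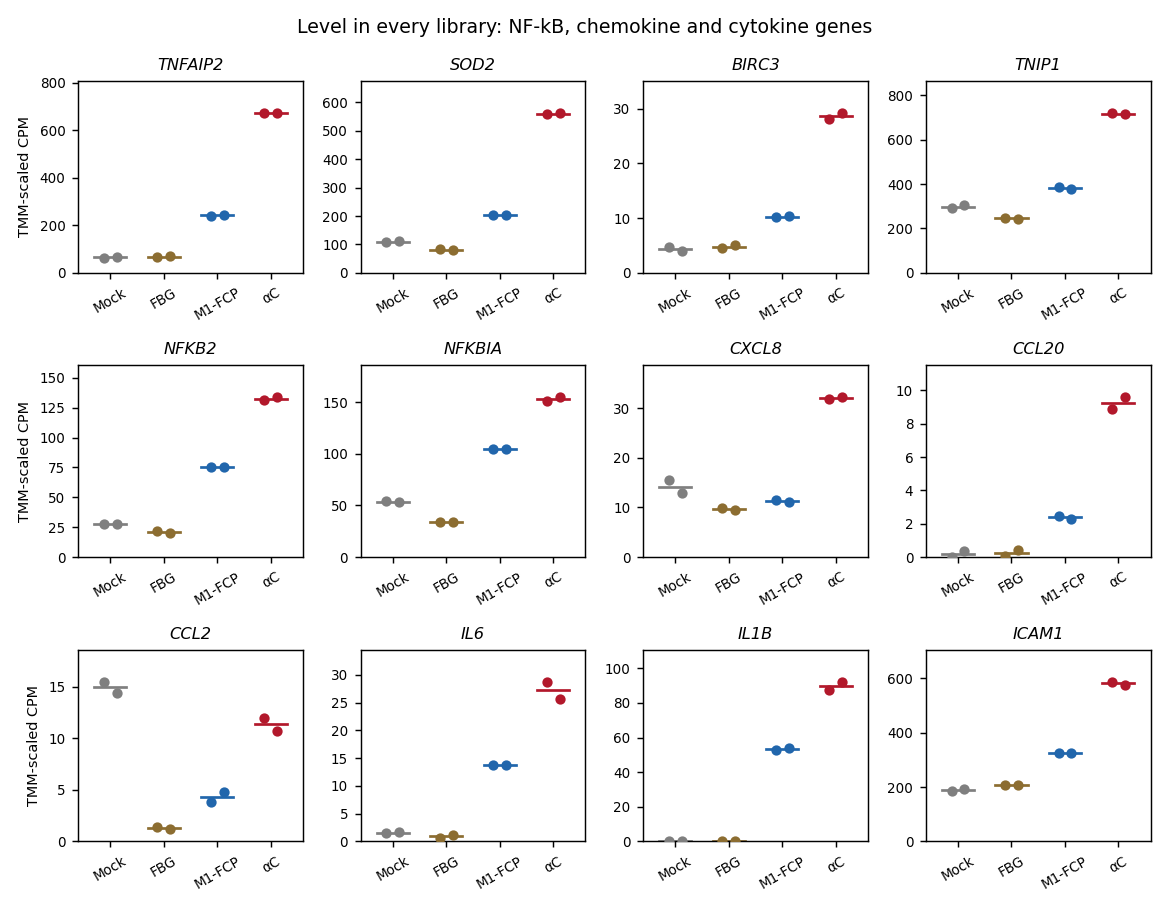
TMM-scaled CPM (vertical axis from 0) of 12 NF-kB, chemokine, cytokine and adhesion genes in every library of the 4 groups, with points for libraries and bars for group means. In each panel both αC points lie above both M1-FCP points; CXCL8 in M1-FCP is near the Mock level, and CCL2 in αC is below it.

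Several of these promoters hold matches to the NF-kB consensus within the 250 bases before the start in RefSeq's promoter table, and the windows around the matches are shown because the genes were higher together. The sequences are from RefSeq, build GRCh38.p14, on the strand of the gene and read 5′ to 3′, with capitals marking the matches to the NF-kB consensus found on either strand and 20 bases printed on each side.
CXCL10, chr4:76023590-76023694, minus strand: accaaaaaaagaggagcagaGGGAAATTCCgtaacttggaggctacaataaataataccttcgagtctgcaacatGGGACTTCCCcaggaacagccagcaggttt
CXCL6, chr4:73836568-73836618, plus strand: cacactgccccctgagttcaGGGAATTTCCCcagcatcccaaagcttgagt
CXCL5, chr4:73998738-73998788, minus strand: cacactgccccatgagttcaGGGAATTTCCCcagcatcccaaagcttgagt
CXCL1, chr4:73869294-73869344, plus strand: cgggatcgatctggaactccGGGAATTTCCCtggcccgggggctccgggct
CXCL3, chr4:74038738-74038788, minus strand: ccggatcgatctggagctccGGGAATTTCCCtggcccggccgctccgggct
CXCL2, chr4:74099243-74099293, minus strand: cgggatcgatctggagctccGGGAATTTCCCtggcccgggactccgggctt
CCL20, chr2:227813743-227813792, plus strand: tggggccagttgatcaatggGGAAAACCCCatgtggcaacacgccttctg
BIRC3, chr11:102317265-102317378, plus strand: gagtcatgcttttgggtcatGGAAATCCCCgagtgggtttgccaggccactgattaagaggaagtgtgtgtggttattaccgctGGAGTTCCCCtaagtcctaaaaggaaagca
TNFAIP3, chr6:137867172-137867233, plus strand: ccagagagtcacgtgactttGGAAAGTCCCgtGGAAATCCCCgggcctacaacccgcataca
The run in capitals in CXCL1, CXCL2, CXCL3, CXCL5 and CXCL6 gives 2 overlapping matches, one on each strand. For TNFAIP3 the start in RefSeq's promoter table lies downstream of the gene start in the count files, so its window is inside the gene as counted.

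A promoter entry was found for 16 of the 19 NF-kB and chemokine members that were called at least 1.5-fold higher, and 9 of the 16 held a match. Over all 10245 tested protein-coding genes with a promoter entry, 605 (5.91%) held one. The share was 25% (24 of 96) among protein-coding genes called at least 1.5-fold higher, 9.32% (79 of 848) among all called higher and 4.28% (42 of 981) among those called lower. A match describes the letters of this window and does not show that the factor binds there.

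Cytokines of the interleukin-1 and interleukin-6 families form the next group. Of 18 tested members, 9 were called higher and 0 lower, with a median log2 fold change of 0.17. IL6, the acute-phase cytokine, had 13.7 and 13.7 CPM in M1-FCP and 28.8 and 25.6 in αC, 1.99-fold apart (log2 0.99 ± 0.088, edgeR adjusted p = 4.43e-20). LIF, a cytokine that signals through the same gp130 receptor chain, had 50.6 and 50.7 CPM in M1-FCP and 95.2 and 94.3 in αC (log2 0.90 ± 0.040). Neither gene's groups overlapped. IL1B had 52.6 and 54.0 CPM in M1-FCP and 87.6 and 92.4 in αC (log2 0.76 ± 0.041), and IL1A had 54.8 and 58.8 and then 81.0 and 83.4 (log2 0.53). Both interleukin-1 genes had at most 0.202 CPM in the Mock and FBG libraries. The receptor and signalling genes were closer: SOCS3, the feedback inhibitor of gp130 signalling, had a log2 fold change of 0.73, IL6R 0.26, IL6ST, which encodes gp130, 0.21 and STAT3 0.14, all called. The interleukin-1 receptor genes IL1R1 and IL1RAP were not called.

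Receptors of the innate system had 4 of 15 tested members called higher and 0 lower (median log2 fold change 0.12). With a stricter filter on low counts 3 of 14 tested were called higher. TLR2, the receptor for bacterial lipopeptides, had 7.68 and 6.53 CPM in M1-FCP and 14.1 and 15.7 in αC, a 2.09-fold difference without overlap (log2 1.07 ± 0.11, edgeR adjusted p = 2.26e-15). IRAK2, a kinase downstream of these receptors, had 6.97 and 9.72 CPM in M1-FCP and 16.4 and 18.6 in αC (log2 1.07 ± 0.24, edgeR adjusted p = 0.0363, or 0.118 with DESeq2). The count was 2 when any 1 of the 4 libraries was left out, and 1 with DESeq2 or with copies kept. NOD2, a sensor of bacterial peptidoglycan, was among the calls lost without 1 library (edgeR adjusted p = 0.0524 to 0.339). TLR4, the endotoxin receptor, was not called. Its libraries had 40.2 and 38.8 CPM in M1-FCP and 39.3 and 35.8 in αC, and the 95% interval of the log2 fold change ran from -0.17 to 0.03. CD14, its co-receptor, had 2.13 and 2.84 CPM in M1-FCP and 2.57 and 2.31 in αC, also without a call.

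Interferon-stimulated genes encode antiviral sensors and effectors. Of 33 tested members, 23 were called higher in αC and 0 lower, 6 of them at least 1.5-fold, and the median log2 fold change was 0.39. RIGI, the sensor of viral RNA, had 37.4 and 33.8 CPM in M1-FCP and 61.7 and 59.7 in αC (log2 0.77 ± 0.051, edgeR adjusted p = 6.93e-30). IFIT3 had 9.42 and 11.6 CPM in M1-FCP and 19.1 and 18.6 in αC (log2 0.84). Neither gene's groups overlapped. MX1 and OASL, which encode antiviral effectors, differed by log2 0.64 and 0.88, and IFI44L and XAF1, both at low counts, by 1.15 and 1.16. The transcription factor IRF1 had 60.1 and 57.5 CPM in M1-FCP and 79.7 and 80.0 in αC (log2 0.44 ± 0.040). With DESeq2, 10 of 26 tested members of the list were called higher, and 22 of 31 with a stricter filter on low counts. The call of XAF1 was lost without the first M1-FCP library (log2 0.85, edgeR adjusted p = 0.317) or without either αC library (0.0549 and 0.234), and that of IFI44L without the first M1-FCP library (log2 0.90, edgeR adjusted p = 0.0575). No member of the 5 immune lists was called lower by edgeR as described or by DESeq2, and at an unadjusted p under 0.05 in edgeR 1 was lower, in the interleukin list. With GC content and length trends removed, 1 of the 15 innate receptors was called lower.

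Windows around matches to the interferon response element, which is GAAA, any 2 bases and GAAA again, searched on both strands, are shown for the 2 members called at least 1.5-fold higher that hold it, from RefSeq, GRCh38.p14, with the match in capitals.
IFIT3, chr10:89327821-89327904, plus strand: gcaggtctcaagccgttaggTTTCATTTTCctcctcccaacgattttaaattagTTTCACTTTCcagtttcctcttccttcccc
IFI44L, chr1:78620264-78620404, plus strand: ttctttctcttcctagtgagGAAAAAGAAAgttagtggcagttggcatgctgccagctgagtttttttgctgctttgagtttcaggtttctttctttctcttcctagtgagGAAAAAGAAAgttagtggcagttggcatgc
Of the 6 members called at least 1.5-fold higher, 5 had a promoter entry, and 2 of these held the element. It was found in 17 of the 26 tested members of the list with a promoter entry (65.4%) and in 227 of all 10245 (2.22%). Among protein-coding genes it was found in 6 of 96 called at least 1.5-fold higher (6.25%), 44 of 848 called higher (5.19%) and 13 of 981 called lower (1.33%).

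Other genes with wide or well-supported differences follow, of which TNFAIP6 and LCN2 were chosen after their values were seen. SAA2, an acute-phase apolipoprotein, had 3.02 and 2.49 CPM in M1-FCP and 14 and 13.7 in αC, 5.02-fold apart (log2 2.33 ± 0.14, edgeR adjusted p = 5.08e-35). Its near-identical relative SAA1 was set aside for its copies, so reads may be split between them. PTX3, a soluble pattern-recognition protein, had 2.71 and 3.38 CPM in M1-FCP and 6.35 and 6.98 in αC, all below the 19 and 22.3 of the Mock libraries. C3, the central complement component, was abundant, with 719 and 715 CPM in M1-FCP and 919 and 916 in αC (log2 0.36 ± 0.0075, edgeR adjusted p = 1.2e-92). Of 9 tested complement genes, C3 was the 1 called. TNFAIP6, a hyaluronan-binding protein, had 0.0888 and 0.266 CPM in M1-FCP and 1.54 and 1.75 in αC, and LCN2, an iron-sequestering defence protein, 1.11 and 0.932 and then 3.56 and 3.17. SGPP2, a sphingosine-1-phosphate phosphatase, had 10.1 and 10.7 CPM in M1-FCP and 31.9 and 29.4 in αC (log2 1.56 ± 0.090).

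Growth factor and transcription factor genes were represented as well. INHBA, the subunit of activin A, had 24.9 and 25.1 CPM in M1-FCP and 60.4 and 57.8 in αC, 2.37-fold apart (log2 1.24 ± 0.060, edgeR adjusted p = 1.16e-44). It belongs to the list of TGF-beta and mesenchymal transition genes, where 8 of 26 tested members were called higher and 2 lower (median 0.06), and 5 higher without the first αC library. SMAD3, the signal transducer of TGF-beta and activin, had 113 and 112 CPM in M1-FCP and 183 and 184 in αC, and SNAI1 differed by log2 0.60. The immediate early genes had 10 of 34 called higher and 4 lower, led by KLF4 (log2 0.99) and FOSL2 (0.61), and 2 were lower without the second M1-FCP library. Glucocorticoid targets had 9 of 14 called higher and 1 lower (median 0.13), the largest being NFKBIA, which the NF-kB list also holds. DESeq2 called 4 of 12 tested higher and 0 lower, and a test against a 1.2-fold difference called 1 higher. Over all genes tested 7.26% were called higher and 7.92% lower. The glucocorticoid receptor gene NR3C1 differed by 0.29, and TSC22D3, a classical target, was lower (log2 -0.25, edgeR adjusted p = 0.036), a call lost without any 1 of the 4 libraries (edgeR adjusted p from 0.11 to 0.176).

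Adhesion genes, the subject of the series, differed in a few members per list. The receptor genes ICAM1 and SDC4 stood out, while most integrins, cadherins and catenins were within small intervals of no difference. ICAM1, the ligand of leukocyte β2 integrins and itself an NF-kB target and a binder of fibrinogen, had 324 and 324 CPM in M1-FCP and 588 and 575 in αC (chromosome 19, 10271120 to 10286615). The 1.8-fold difference (log2 0.84 ± 0.015, edgeR adjusted p = 5.55e-102) had no overlap. SDC4, a heparan sulfate proteoglycan of focal adhesions, had 339 and 338 CPM in M1-FCP and 568 and 572 in αC (log2 0.75 ± 0.016, edgeR adjusted p = 6.05e-94). The Mock libraries had 403 and 412 CPM of SDC4, between the 2 groups. Of the 17 tested immunoglobulin-family and other adhesion receptors, 6 were called higher and 1 lower, with a median of 0.00. The shares over all genes tested were 7.26% higher and 7.92% lower. CD44, the hyaluronan receptor, was not called, with a 95% interval from -0.02 to 0.08.

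Integrins are the αβ receptors that bind fibrinogen and matrix. Of 17 tested subunits, 4 (23.5%) were called higher and 2 (11.8%) lower, with a median log2 fold change of 0.00. Over all genes tested the shares were 7.26% higher and 7.92% lower. ITGB8 had 8.44 and 9.15 CPM in M1-FCP and 15.3 and 13.3 in αC (log2 0.70 ± 0.10). ITGB6, the epithelial partner of αv, had 65.3 and 63.3 CPM in M1-FCP and 84.8 and 86.0 in αC (log2 0.41 ± 0.040), and ITGAV, αv itself, had 163 and 168 and then 190 and 194 (log2 0.22). ITGA5 was higher by log2 0.13, a call lost without the second M1-FCP library (log2 0.08, edgeR adjusted p = 0.23) or the second αC library (0.11, 0.0654). ITGB1, the common β1 subunit, was lower, with 1060 and 1045 CPM in M1-FCP and 981 and 991 in αC (log2 -0.09 ± 0.0065), as was ITGA6 (log2 -0.14). ITGB3, whose αvβ3 form binds the RGD sequence of fibrinogen, was not called (9.55 and 11.1 CPM against 12 and 11.9, edgeR adjusted p = 0.106), nor was ITGB4 (95% interval -0.05 to 0.01).

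Junction genes were uneven, and their counts stand beside 7.26% of all genes called higher and 7.92% called lower. Of 20 tested genes for desmosomes, hemidesmosomes and their laminin, 7 were called higher and 1 lower (median 0.05). That laminin anchors basal epithelial cells to the membrane beneath them. Its chain gene LAMA3 had 275 and 279 CPM in M1-FCP and 369 and 373 in αC (log2 0.42 ± 0.021), and its chain gene LAMB3 had 439 and 442 and then 567 and 556 (log2 0.35 ± 0.013). LAMA3 was not called with DESeq2 (adjusted p = 0.101). PLEC, which links keratins to hemidesmosomes, was higher by log2 0.08 at 5389 to 5688 CPM, a difference that turned to -0.04 once GC content and length trends were removed. Among 12 tested tight junction genes, 3 were called higher and 0 lower. The count higher was 1 without the second αC library, with DESeq2 and with copies kept. CLDN1, a sealing claudin, had 90.7 and 91.0 CPM in M1-FCP and 149 and 152 in αC (log2 0.73 ± 0.030, edgeR adjusted p = 1.26e-52). The cadherin and catenin list had 2 of 15 called higher and 2 lower, and 1 and 0 with DESeq2. CDH1, E-cadherin, had 254 and 254 CPM in M1-FCP and 258 and 258 in αC, with a 95% interval from -0.02 to 0.06.

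Focal adhesion genes leaned lower, with 7 of 24 tested called lower and 2 higher (median -0.05), and DESeq2 called 3 lower. Over all genes tested 7.92% were called lower and 7.26% higher, with more frequent calls at high levels. ACTN1, an actin cross-linker, had 1062 and 1061 CPM in M1-FCP and 1023 and 1010 in αC (log2 -0.06 ± 0.0062, edgeR adjusted p = 6.17e-17). ZYX and CTTN could not be judged: both were set aside for copies, and their counts varied several-fold within a pair. In the extracellular matrix list 8 of 36 were called higher and 6 lower (median 0.02). TNC, tenascin-C, a matrix protein of injured epithelium, had 206 and 204 CPM in M1-FCP and 379 and 378 in αC (log2 0.88 ± 0.020, edgeR adjusted p = 6.4e-88). FN1, fibronectin, had 9128 and 9138 CPM in M1-FCP and 8314 and 8303 in αC, lower without overlap (log2 -0.14 ± 0.0017, edgeR adjusted p = 2.31e-06).

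The plasminogen and coagulation list, which covers the enzymes that make and dissolve fibrin, had 9 of 27 tested members called higher and 2 lower (median 0.10). DESeq2 called 4 of 23 tested higher and 1 lower, and with genes with copies kept in the fit 6 were higher and 2 lower. Over all genes tested 7.26% were called higher and 7.92% lower. SERPINB2, an intracellular plasminogen activator inhibitor, had 1.73 and 1.55 CPM in M1-FCP and 3.47 and 4.92 in αC (log2 1.35 ± 0.21). PLAU, urokinase, had 113 and 106 CPM in M1-FCP and 135 and 136 in αC (log2 0.31 ± 0.032), its receptor PLAUR differed by log2 0.37, and tissue plasminogen activator PLAT by 0.24. PLAUR was not called without the second M1-FCP library (log2 0.31, edgeR adjusted p = 0.0669). F2RL1, the protease-activated receptor 2 that mite proteases can cut, was not called: 21.5 and 21.9 CPM against 23.8 and 20.2. Among 20 tested matrix proteases and inhibitors, MMP9 was called higher (log2 0.99 ± 0.20) and ADAM19 lower (log2 -0.25). The list had 0 members called lower without the first M1-FCP library, without the second αC library or with DESeq2, which also called 0 higher.

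Epithelial identity genes had 8 of 23 tested members called higher and 5 lower (median 0.03). KRT6B, a keratin of activated epithelium, had 14.5 and 14.5 CPM in M1-FCP and 54.9 and 49.9 in αC, 3.61-fold apart (log2 1.85 ± 0.073, edgeR adjusted p = 2.03e-53). Its near-identical relative KRT6A had 334 and 340 CPM in M1-FCP and 383 and 389 in αC (log2 0.20, not called with genes with copies kept in the fit, adjusted p = 0.113), so part of the KRT6B count may come from reads of its relatives. KRT5 was not called, with a 95% interval from -0.04 to 0.07. TP63, the transcription factor of basal cells, had 80.5 and 80.8 CPM in M1-FCP and 111 and 109 in αC (log2 0.45 ± 0.035), and the epithelial factors ELF3 and EHF differed by log2 0.84 and 1.85. The members called lower were KRT18, with 547 and 553 CPM in M1-FCP and 502 and 501 in αC (log2 -0.13 ± 0.013), its partner KRT8 (log2 -0.11), KRT7 (-0.07), KRT19 (-0.07) and the splicing factor gene ESRP1, with 86 and 83 and then 72.2 and 76.6 CPM (-0.18). DESeq2 did not call ESRP1 (adjusted p = 0.255), and it called 5 of 19 tested members of the list higher and 3 lower. NKX2-1, the lung lineage factor, had 1 count in each M1-FCP library and 6 in each αC library, a ratio of summed counts of 5.79 (95% counting interval 1.29 to 53.2), against 10.2 to 11.8 CPM in Mock and FBG. Its call (edgeR adjusted p = 0.0415) was lost without any 1 of the 4 libraries (0.122 to 0.18). In the fibroblast list edgeR called 0 of 12 tested markers, with 2 at an unadjusted p under 0.05, and DESeq2 called 1 of 8 it tested. COL1A1 had 176 and 176 CPM in M1-FCP and 188 and 185 in αC (edgeR adjusted p = 0.0532).

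**Figure D3:**
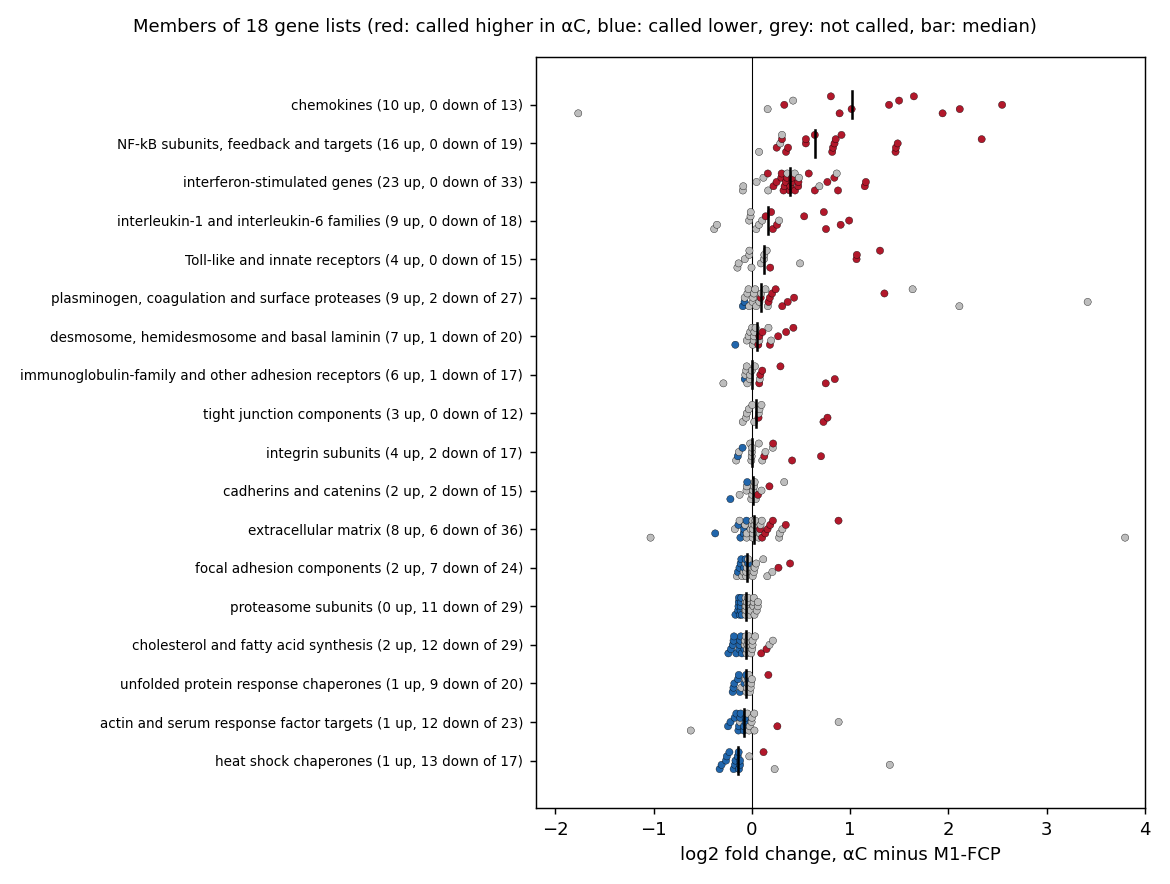
Log2 fold change of αC minus M1-FCP (horizontal axis) for the tested members of 18 gene lists, one row a list, with the number called higher (up) and lower (down) of those tested after each name. Each point is a gene, red where called higher, blue where called lower and grey where not called, and the black bar is the list's median; the chemokine and NF-kB rows extend to the right, and the heat shock and actin rows lie just left of 0.

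The lists that leaned lower in αC held abundant chaperone, cytoskeletal and metabolic genes, with small differences. Heat shock chaperones, which fold cytosolic proteins, had 13 of 17 tested members called lower and 1 higher, with a median log2 fold change of -0.14. HSPA8, the constitutive HSP70, had 2872 and 2886 CPM in M1-FCP and 2295 and 2293 in αC (log2 -0.33 ± 0.0069, edgeR adjusted p = 1.6e-05). HSP90AA1 had 2585 and 2585 CPM in M1-FCP and 2199 and 2215 in αC (log2 -0.23 ± 0.0023, edgeR adjusted p = 5.12e-39), and HSP90AB1 had 2482 and 2488 and then 2249 and 2250. None of these 3 overlapped, and the standard error of HSP90AA1 lay below its counting error. HSPH1 and the HSP40 genes DNAJB1 and DNAJB4 had log2 fold changes of -0.25, -0.26 and -0.31, and HSPB1 was the member called higher (0.12). The HSPB1 call was lost without the second M1-FCP library (log2 0.08, edgeR adjusted p = 0.308) or the second αC library (0.08, 0.284). In a test against a 1.2-fold difference, 1 member of the list was called lower. Endoplasmic reticulum chaperones of the unfolded protein response had 9 of 20 called lower and 1 higher (median -0.06), led by HSPA5, or BiP, with 1354 and 1351 CPM in M1-FCP and 1192 and 1200 in αC (log2 -0.18 ± 0.0046). XBP1, the stress transcription factor, was the 1 called higher (log2 0.17), a call lost without the second M1-FCP library (log2 0.13, edgeR adjusted p = 0.0508).

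Actin cytoskeleton and serum response factor targets had 12 of 23 called lower and 1 higher (median -0.08). TPM3, a tropomyosin, had 799 and 796 CPM in M1-FCP and 723 and 707 in αC (log2 -0.16 ± 0.0095), TPM1 a log2 fold change of -0.22 and EZR, ezrin, -0.17. RHOB, a small GTPase of actin regulation, was the member called higher (log2 0.26). Genes of cholesterol and fatty acid synthesis had 12 of 29 called lower and 2 higher (median -0.06). HMGCS1, an enzyme early in cholesterol synthesis, had 706 and 710 CPM in M1-FCP and 633 and 636 in αC (log2 -0.16 ± 0.011, edgeR adjusted p = 1.25e-29). The regulators SREBF1 and SREBF2 were the 2 called higher (log2 0.15 and 0.10). Proteasome subunits had 11 of 29 called lower and 0 higher (median -0.06). Such counts stand beside 7.92% of all genes called lower and, at 100 CPM or more, 948 of 2269 genes called in either direction. In the test against a 1.2-fold difference, 0 members of the actin, sterol and proteasome lists were called lower.

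Cell cycle genes had 11 of 39 called lower and 4 higher, beside 7.92% and 7.26% over all genes tested. The kinase genes AURKA (log2 -0.18) and BUB1 (-0.20) were among the lower ones, CENPE (0.39) and CENPF (0.26) among the higher ones, and 24 members were not called. The median was -0.03, or 0.01 with GC content and length trends removed, where 8 were lower and 4 higher, and 7 were lower without the second αC library. CCND2, a G1 cyclin, had 309 and 306 CPM in M1-FCP and 250 and 245 in αC (log2 -0.31 ± 0.020). Cytosolic ribosomal protein genes were split, with 13 of 75 called higher and 14 lower, and the split was 19 and 7 with library totals as the scaling. Without the second M1-FCP library 6 were higher, and without the first 6 were lower. Nuclear pore genes had 8 of 24 called lower and 3 higher, of which TPR was higher by log2 0.35. The lower count there was 3 without the first library of either group, 4 without the second, 4 with GC content and length trends removed, and 1 with DESeq2.

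**Figure D4:**
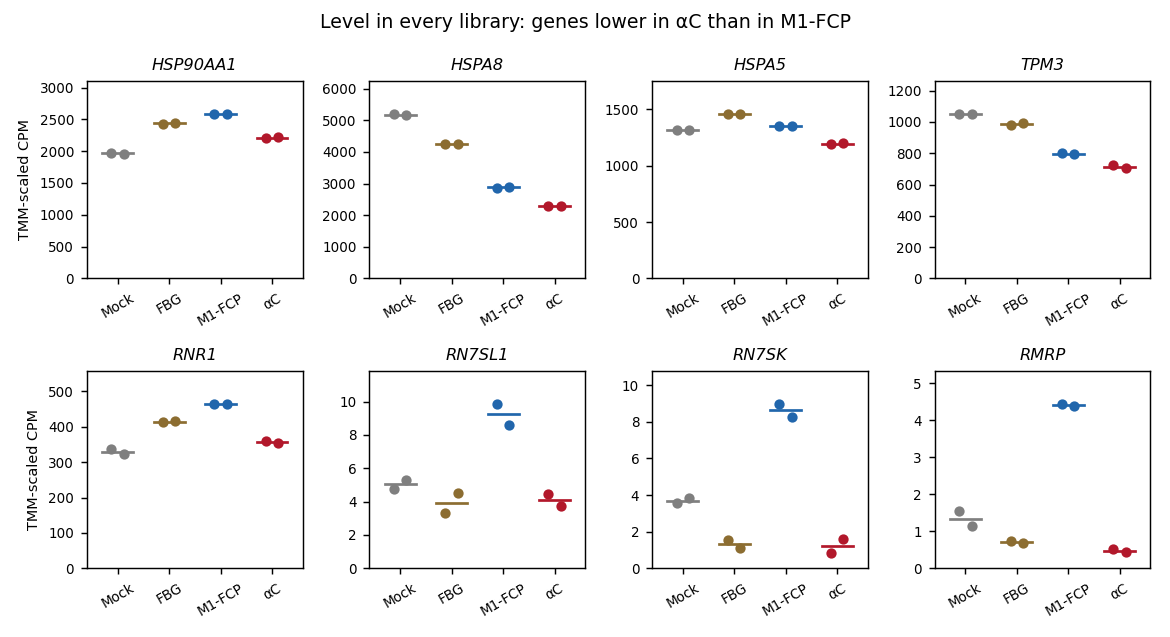
TMM-scaled CPM (vertical axis from 0) in every library of the 4 groups for 8 genes called lower in αC than in M1-FCP, with points for libraries and bars for group means. The αC points lie below the M1-FCP points in every panel; RN7SK, RN7SL1 and RMRP are highest in M1-FCP of all 4 groups.

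Mitochondrial transcripts were mostly lower in αC, and 3 structural RNAs were lower by wide margins. Of 25 tested mitochondrially encoded genes, 14 were called lower and 2 higher (median -0.08), the latter the transfer RNA genes TRNC (log2 0.18) and TRNH (0.55), of which DESeq2 called 0. All 13 mitochondrial messenger RNAs passed the filter, and 12 were called lower and 0 higher (median -0.12). The mitochondrial ribosomal RNA gene RNR1 had 465 and 464 CPM in M1-FCP and 358 and 353 in αC (log2 -0.38 ± 0.017, edgeR adjusted p = 1.83e-48), and RNR2 a log2 fold change of -0.21. Of 17 tested structural and nuclear non-coding RNAs, 5 were called lower, 0 higher and 12 not at all (median -0.02), and DESeq2 called 2 lower. RN7SK, the scaffold of the complex that holds back transcription elongation, had 8.97 and 8.26 CPM in M1-FCP and 0.815 and 1.58 in αC (log2 -2.84 ± 0.18, edgeR adjusted p = 1.72e-31). RMRP, the RNA of a ribonuclease that processes ribosomal RNA, had 4.44 and 4.40 CPM in M1-FCP and 0.515 and 0.428 in αC (log2 -3.21 ± 0.27, edgeR adjusted p = 1.61e-21). RN7SL1, the RNA of the signal recognition particle, had 9.86 and 8.62 CPM in M1-FCP and 4.46 and 3.72 in αC (log2 -1.17 ± 0.14). These 3 RNAs lack poly(A) tails, and in each of them the M1-FCP libraries were the highest of the 4 groups. The share of counts in mitochondrial ribosomal RNA was also lower in αC, at 0.461% to 0.465% in M1-FCP and 0.399% to 0.401% in αC. So was that in all mitochondrial genes, at 4.45% to 4.47% and 4.13% to 4.15%. The ribosomal share was 0.465% to 0.470% in FBG and 0.269% in Mock, so M1-FCP was not the highest group there. The part of RNA selection or RNA quality in these differences was not tested.

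Replication-dependent histone genes, whose messenger RNAs also end without poly(A), had 3 of 18 tested members called lower and 1 higher (median -0.23). H1-4 had 0.977 and 0.622 CPM in M1-FCP and 0.214 and 0.128 in αC (log2 -2.18 ± 0.54), a call lost without the first M1-FCP library (log2 -1.82, edgeR adjusted p = 0.0936) or the second αC library (-1.86, 0.0557). With DESeq2 0 of the 4 histone genes it tested were called. The lower count was 1 without the first M1-FCP library, without either αC library or with copies kept, and 0 of 10 with a stricter filter on low counts. The higher call, H3C10, was lost without either M1-FCP library (edgeR adjusted p = 0.217 and 0.141). The summed level of these genes was 47.35 to 49.18 CPM in M1-FCP and 42.59 to 42.98 in αC. Among protein-coding genes with at least 100 mean counts the widest lower differences were those of APLN and PDE4D. APLN, the ligand apelin, had 23.7 and 21.9 CPM in M1-FCP and 14 and 14.2 in αC (log2 -0.69 ± 0.077, edgeR adjusted p = 6.22e-14). PDE4D, a cyclic AMP phosphodiesterase, had 43.0 and 42.8 CPM in M1-FCP and 28.0 and 29.3 in αC (log2 -0.58 ± 0.059). Neither overlapped.

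Beside the Mock and FBG libraries, the higher genes followed more than one order. TNFAIP2 had 63.5 and 67.4 CPM in Mock and 66.4 and 69.6 in FBG, so its levels ran from these 2 groups through M1-FCP to αC. CXCL8 had 15.5 and 12.9 CPM in Mock and 9.86 and 9.59 in FBG, so the M1-FCP libraries lay within the range of those 2 groups and the αC libraries above it. LIF had 81.1 and 78.3 CPM in Mock, above M1-FCP and below αC. CCL2 and PTX3 had their highest levels in Mock. Since M1-FCP and αC share the wide separation from Mock and FBG described at the start, an order against Mock mixes that separation with the treatments, and the 2 cannot be told apart.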

How the data were processed

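Each deposited file gives raw counts per gene. The authors counted read pairs over exons with featureCounts, and per the file headers set neither a strand nor a multi-mapping option. The version is 1.6.0 in the headers. Per the submitters' processing notes it is 1.6.2, and the notes also name Trimmomatic 0.39, HISAT2 2.2.1, SAMtools 1.9 and the build GRCh38.p14. Without strand, antisense and overlapping genes share reads, and reads of near-identical genes can be split or lost.

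Genes with numbered copies on alternate loci were set aside. Counts of all 8 libraries (4 groups of 2) were fitted with edgeR 4.0.16 in R 4.3.3 (quasi-likelihood, robust, TMM scaling, filterByExpr, 4 residual degrees of freedom), with Benjamini-Hochberg adjustment over 15321 genes and calls at an adjusted p under 0.05. CXCL10, CSF2, TNFAIP6 and NOD2 passed the filter on low counts only through the αC libraries. The standard error is the absolute log2 fold change over the root of the F statistic. Intervals use the larger of this and the counting error. In 2.27% of genes the standard error lay below the counting error, as for TNFAIP2 (0.0154 against 0.0160). The same holds, among other genes, for TNIP1, HSP90AA1, FN1, ACTN1, ITGB1, HSPA5 and C3, so their printed standard errors and p-values understate the uncertainty. Intervals and floors cover counting error only where so named. The spread is shared over genes, and the common biological coefficient of variation was 0.00988. On simulated data the test recovered 60% of 1.25-fold, 98% of 1.5-fold, 98% of 2-fold and 100% of 4-fold changes, with 5 false calls among 14880 unchanged genes. The changes were set only in well-counted genes, and counts were drawn from the spread estimated in these libraries. The simulation therefore does not cover changes in low-count genes or a wider spread between separate cultures.

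Named genes are the 12 called genes with the widest difference and at least 100 mean counts, and the 8 with the smallest p, in each direction; in each of 46 lists up to 6 called members of at least 1.5-fold, or otherwise the 2 with the smallest p; and preset adhesion and inflammation genes. Further genes, such as NFKB1, RELA, CXCL1, KRT5, LAMA3, HSPA8 and TNFAIP6, were chosen after their values were seen. A few genes that these rules name are not reported here. The comparison and the lists were chosen with earlier results of these data known. Lists are described by counts and medians, without a set test. Promoters are RefSeq's, with 11743 tested genes matched by symbol. Alternatives were DESeq2 1.42.0, other scalings, filters and fits, a replicate block, removal of GC content and length trends with mgcv 1.9.3, and leaving out each library.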

Additional observations from a re-analysis of the deposited data

How the results depend on the processing

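Genes called numbered 2326. DESeq2 called 687 (355 higher, 332 lower in αC), 680 of them among the 2326, with genes with copies kept in the fit there were 1433 (721 and 712), and a test against 1.2-fold gave 152 (142 and 10). Leaving out 1 library gave 1517 to 2448 calls, 766 to 1201 higher and 729 to 1295 lower. Calls of at least 1.5-fold (196) numbered 72 with DESeq2, 113 with copies kept, 98 in the 1.2-fold test and 140 to 219 without 1 library; those of at least 2-fold (81) numbered 20, 47 and 44, then 42 with a stricter filter, and 60 to 98 without 1 library. The cause was not tested, except that DESeq2 tested 11230 genes. Of the named calls, those of ITGA5, PLAUR, XBP1, HSPB1, TSC22D3 and NKX2-1 were also lost with DESeq2 (adjusted p from 0.0716 to 0.331). DESeq2 called 6 chemokines and 10 interferon-stimulated genes higher, and 3 proteasome subunits and 2 structural RNAs lower. The 1.2-fold test called 5 interleukin-1 and interleukin-6 genes and 7 interferon-stimulated genes higher; lower were 1 heat shock chaperone, 3 structural RNAs and 0 actin, 0 sterol and 0 proteasome genes. Library totals as the scaling gave 2224 calls (1312 and 912), DESeq2's size factors 2287 (1162 and 1125), the 4 libraries alone 2378 (1228 and 1150), no filter 2095, and GC content and length trends removed 1930. The median of all genes lay between -0.010 and 0.011 in these settings.

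Equal replicate numbers did not pair the libraries: the correlation of their deviations was -0.026 to 0.010. With the replicate number as a block, 2328 genes were called (1106 and 1222), and 2307 of the 2326 were kept.

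Signs reversed in values near 0 and in genes with few counts, such as PECAM1 with 10 to 25 counts per M1-FCP or αC library. With GC content and length trends removed, PLEC was at -0.04 and SLC7A5 at -0.01. Without 1 library, CSF1R ranged from -0.15 to 0.36, PECAM1 from -0.93 to 0.38, F2RL1 from -0.09 to 0.13, CD14 from -0.22 to 0.20, COL17A1 from -0.05 to 0.03 and KRT5 from -0.01 to 0.05, none of them called with all libraries. Depth limits genes under about 1 CPM, where few counts carry a call.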
